A study of Mus musculus with 6 samples.

Results

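The expression of 10 chemokine genes was followed in mouse lung fibroblasts transferred into injured lungs, with and without the active form of Srebf1. They were chosen by gene symbol, as CC and CXC chemokines made by lung fibroblasts: Ccl2, Ccl5, Ccl7, Ccl8, Ccl11, Ccl20, Cxcl1, Cxcl5, Cxcl12 and Cxcl14. All 10 symbols had a row among the 19865 symbols of the count tables. The trSrebf1 group was 3 libraries of primary fibroblasts from the lungs of Col1a2-GFP mice, transduced by retrovirus with a doxycycline-inducible active form of Srebf1c, the transcription factor that switches on genes of fatty acid synthesis. The control group was 3 libraries of the same kind of fibroblast carrying the control vector, whose marker was hLNGFR, a human receptor shown on the cell surface. Every host was a C57BL/6 mouse whose lungs had been injured with bleomycin (2 mg/kg), which is used to induce fibrosis. Both kinds of cell were put into the airways on day 5, doxycycline was given on day 7, and donor cells were sorted on day 10. Cells carrying the lineage proteins CD31, CD45, EpCAM, CD146 or Ter119 were first depleted on a magnetic separator, and the sort then kept live, lineage-negative cells positive for Col1a2-GFP and the marker. The reporter marks cells that use the Col1a2 promoter, so the libraries describe that gated population and not every lung fibroblast. The sources used here give neither the age of the mice nor the promoter that drives trSrebf1.

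Chemokines are small secreted proteins that bind receptors on leukocytes and steer them along a gradient held on heparan sulfate in the tissue. The CC family, named for adjacent cysteines, mostly attracts monocytes, lymphocytes and eosinophils. The CXC family includes the ligands of Cxcr2, which attract neutrophils, and Cxcl12, the ligand of Cxcr4 that stromal cells make to retain haematopoietic and immune cells. In the lung, fibroblasts respond to interleukin-1, tumour necrosis factor and interferons by transcribing several of these genes, many of them through NF-kB.

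Counts were 3' tags, each from near the end of a transcript, so they were not divided by gene length. Levels are CPM, a gene's counts scaled to the TMM-normalised library total. Totals ran from 3675146 to 4688196 counts, and 3 counts corresponded to 0.642 to 0.783 CPM in a library. Srebf1 itself had 133, 123 and 108 tags in the trSrebf1 libraries, against 32, 20 and 33 in the control libraries. Counts by symbol do not tell tags of the introduced Srebf1 from those of the cell's own gene. The exons of Srebf1 overlap those of Rai1 by 109 bases on the other strand, and the strand rule of the counts is not given. The fibroblast markers Vim and Col1a2 were abundant in both groups, at 11081 and 6945 CPM in trSrebf1 fibroblasts and 16930 and 9584 CPM in control fibroblasts. Of 10 fibroblast markers 8 fell and 1 rose, and their sum was 31414 to 36168 CPM in trSrebf1 and 43510 to 56015 CPM in control fibroblasts. Of 10194 genes that passed the filter on low counts, 30.2% changed, 13.0% lower and 17.2% higher in trSrebf1 than in control fibroblasts by edgeR's quasi-likelihood test at a Benjamini-Hochberg adjusted p under 0.05. Across all tested genes the median log2 fold change was -0.01.

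Of the 10 chemokine genes 6 passed the filter. In trSrebf1 fibroblasts 5 of these were lower than in control fibroblasts (Ccl2, Ccl7, Cxcl1, Cxcl12 and Cxcl14) and 0 were higher, and Ccl5 did not pass the threshold. The 5 that fell had libraries that did not overlap between the groups, as did 20.2% of all tested genes in that direction and 43.3% in either. The median log2 fold change of the 6 was -1.40. Ccl7 passed the filter through the control libraries, since only 1 of its trSrebf1 libraries reached the required 2.41 CPM, and Cxcl14 reached it in 2 of its trSrebf1 libraries. Of the 4 genes below the filter, Ccl8 had more tags in trSrebf1 than in control fibroblasts, and Ccl11, Ccl20 and Cxcl5 had 5, 0 and 0 tags over the trSrebf1 libraries and 14, 8 and 4 over the control libraries. In RNA pooled over many cells, fewer cells that express a gene and less RNA per cell cannot be told apart.

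**Figure D1:**
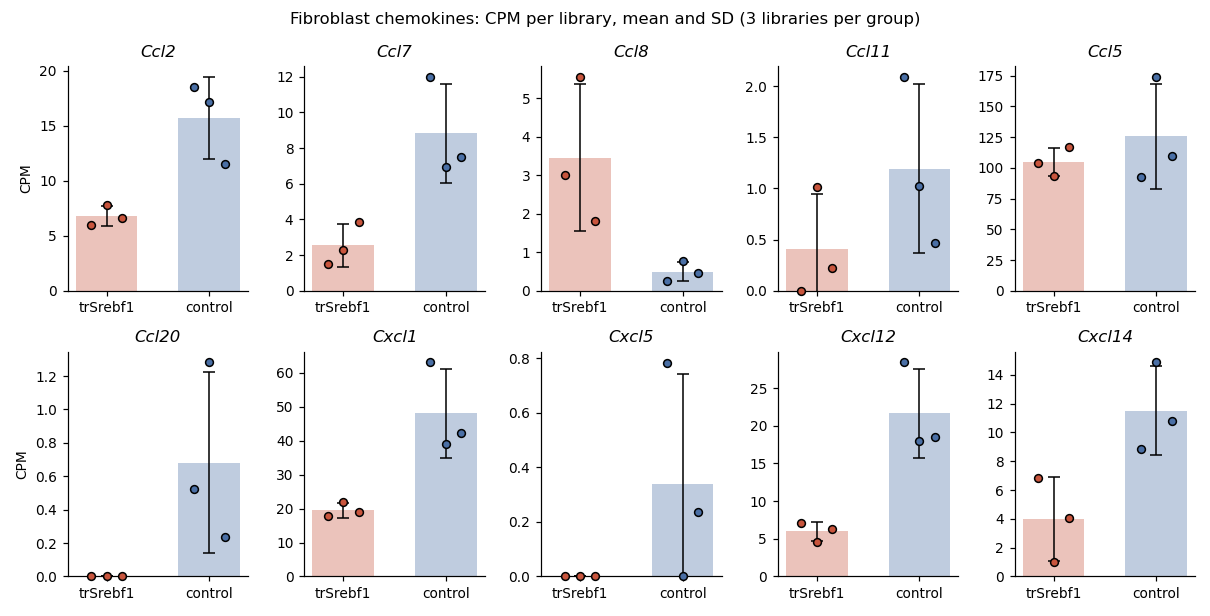
CPM of each of the 10 chemokine genes in each library, with trSrebf1 at the left and control at the right of each panel. Points are libraries, bars are means and error bars are SD (n = 3 each), and each panel has its own axis from 0. For Ccl2, Ccl7, Cxcl1, Cxcl12 and Cxcl14 every trSrebf1 point lies below every control point, for Ccl8 every trSrebf1 point lies above, and for Ccl5 the groups overlap.

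The stretches before the start sites are shown for 3 of these genes, 2 that fell and 1 with more tags in trSrebf1 fibroblasts, because the genes did not move alike. RefSeq promoter entries of the build GRCm38.p6 were matched for 5 of the 10 genes (Ccl8, Ccl20, Cxcl1, Cxcl12 and Cxcl14). Each run below is the 250 bases before the annotated start, 5′ to 3′ on the strand of the gene, which is the plus strand in all 3. Capitals mark matches to the kappaB consensus, the motif bound by NF-kB, in Cxcl1, and to the TATA box TATAAA in Ccl8. Cxcl12 has no match to either motif or to the sterol regulatory element core TCACNCCAC in this window.
Cxcl1 chr5:90890995-90891244: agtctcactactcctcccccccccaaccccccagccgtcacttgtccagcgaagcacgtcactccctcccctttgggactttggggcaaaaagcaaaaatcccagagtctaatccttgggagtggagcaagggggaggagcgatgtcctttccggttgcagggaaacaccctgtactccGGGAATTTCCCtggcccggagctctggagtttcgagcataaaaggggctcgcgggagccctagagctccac
Ccl8 chr11:82114935-82115184: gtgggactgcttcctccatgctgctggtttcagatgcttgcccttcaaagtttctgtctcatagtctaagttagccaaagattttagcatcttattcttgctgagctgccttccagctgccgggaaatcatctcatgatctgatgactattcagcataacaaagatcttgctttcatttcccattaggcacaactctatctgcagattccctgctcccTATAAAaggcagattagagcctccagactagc
Cxcl12 chr6:117168285-117168534: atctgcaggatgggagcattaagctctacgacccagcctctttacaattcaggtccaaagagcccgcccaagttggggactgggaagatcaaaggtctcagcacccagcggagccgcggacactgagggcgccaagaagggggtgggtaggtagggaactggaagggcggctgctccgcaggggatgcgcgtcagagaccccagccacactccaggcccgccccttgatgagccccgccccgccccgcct

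Both strands were searched. In Cxcl1 the consensus was matched on each strand, beginning 71 and 70 bases before the start, and the matches overlap into the single run GGGAATTTCCC. Ccl20 held 1 match, GGAAAACCCC, 80 bases before its start, and Cxcl14 held no match to any of the 3 motifs. The kappaB consensus was found in 3.90% of all 32851 promoter windows of that length, TATAAA in 12.4% and TCACNCCAC in 1.05%. These are matches of letters and do not show binding.

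The genes for monocyte-attracting CC chemokines stand side by side on chromosome 11, and the neighbours differed in direction. Ccl2 (chr11:82035571-82037453, GRCm38, plus strand) encodes the main ligand of Ccr2, which draws inflammatory monocytes out of the blood. It had 28, 31 and 29 tags in the trSrebf1 libraries, against 71, 67 and 49 in the control libraries. That is 5.99, 7.83 and 6.59 CPM in trSrebf1 and 18.5, 17.2 and 11.5 CPM in control fibroblasts. The groups did not overlap, and all trSrebf1 libraries lay within 2 CPM of one another. The level of Ccl2 averaged 6.80 ± 0.94 CPM in trSrebf1 and 15.7 ± 3.73 CPM in control fibroblasts (SD over 3 libraries each), with a log2 fold change of -1.21 (SE 0.26, edgeR adjusted p = 0.00168).

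Ccl7 (chr11:82045712-82047525), another Ccr2 ligand, starts 10.1 kb beyond the start of Ccl2. It had 7, 9 and 17 tags in the trSrebf1 libraries, against 46, 27 and 32 in the control libraries. Every trSrebf1 library was below the lowest control library, with means of 2.55 ± 1.21 CPM in trSrebf1 and 8.81 ± 2.78 CPM in control fibroblasts (SD, n = 3 each). The log2 fold change was -1.78 (SE 0.38, edgeR adjusted p = 0.00157).

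Ccl11 (chr11:82057823-82062955), the eosinophil attractant eotaxin, had few tags. The trSrebf1 libraries held 0, 4 and 1, and the control libraries 8, 4 and 2. The groups overlapped, and no difference was detectable at this depth. With no filter on low counts its adjusted p was 0.366 by edgeR.

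Ccl8 (chr11:82115185-82116799) lies 79.6 kb from the start of Ccl2, in the same orientation. In the mouse its protein is a ligand of Ccr8, a receptor of T helper cells. It had 14, 22 and 8 tags in the trSrebf1 libraries, against 1, 3 and 2 in the control libraries. The lowest trSrebf1 library, at 1.82 CPM, was above the highest control library, at 0.770 CPM, and the trSrebf1 libraries themselves spread from 1.82 to 5.56 CPM. The mean level was 6.91-fold higher in trSrebf1 fibroblasts, at 3.46 ± 1.91 CPM against 0.500 ± 0.26 CPM in control fibroblasts (SD, n = 3 each). Ccl8 missed the filter, because 2 trSrebf1 libraries reached 2.41 CPM where 3 are needed, and so it has no value in the fit above. With no filter it passed the threshold among 19865 genes, of which 9.95% were higher, at a log2 fold change of 2.71 (SE 0.67, edgeR adjusted p = 0.000561). DESeq2 gave an adjusted p of 0.0155.

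**Figure D2:**
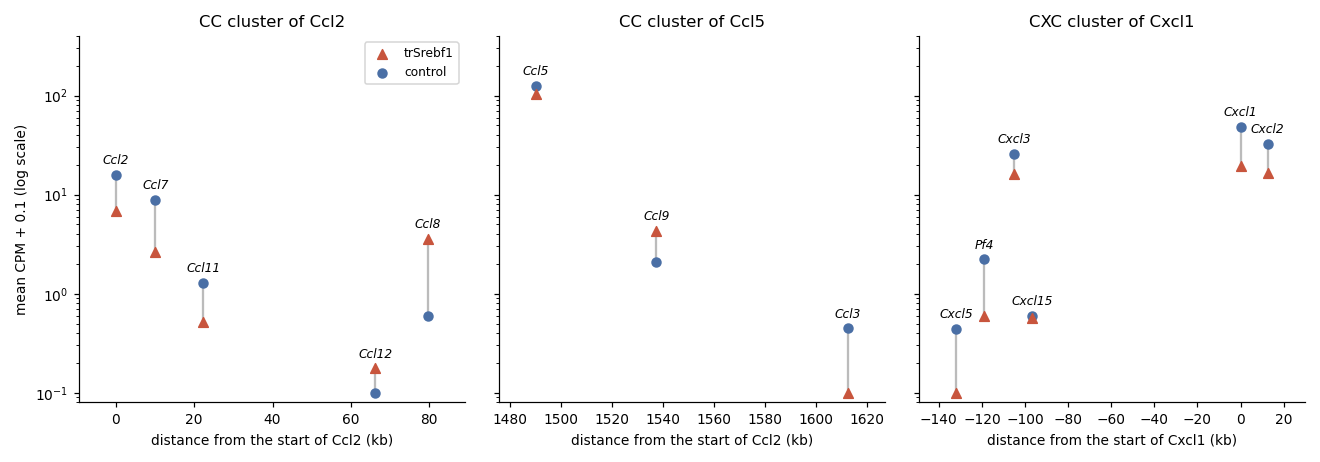
Mean level of the chemokine genes of 3 clusters by position, with distance in kb from the start of Ccl2 or Cxcl1 on the horizontal axis and mean CPM + 0.1 on a logarithmic vertical axis. Triangles are trSrebf1 and circles are control fibroblasts (mean of 3 libraries each), and a line joins the means of 1 gene. In the cluster of Ccl2 the trSrebf1 mean lies below the control mean for Ccl2, Ccl7 and Ccl11 and above it for Ccl8. Ccl12 stands on a single tag.

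Macrophages also make Ccl8 and Ccl2, so their markers were read beside these genes. Of 14 listed macrophage markers 9 had a row in the tables. Ptprc, Adgre1, Marco, Siglecf and Fcgr1 had no row, so they have no counts here. Cd68 had 0, 1 and 0 tags in the trSrebf1 libraries and 2, 3 and 0 in the control libraries, and Itgam had 1 tag in all. Lyz2, Mrc1 and Cd14 also had more tags in control, while Csf1r, C1qb and Mertk had more in trSrebf1 libraries. These were named after their values were seen. Csf1r had 3, 5 and 1 tags in the trSrebf1 libraries and 1, 0 and 0 in the control libraries. Mertk had 2, 1 and 4 against 1, 0 and 3. The summed macrophage markers ranged from 4.71 to 18.9 CPM in trSrebf1 and from 9.62 to 48.0 CPM in control fibroblasts, led by C1qa, with Cd14 next. C1qa had 11, 23 and 72 tags in the trSrebf1 libraries and 164, 47 and 32 in the control libraries. C1qb did not follow it, with 0, 3 and 2 tags in the trSrebf1 libraries and 1, 1 and 0 in the control libraries. Control replicate 1, with the most C1qa tags, was also the control library with the highest CPM of Ccl2, Ccl7, Ccl11, Cxcl1, Cxcl5 and Cxcl12. The same library was the lowest control library for Ccl5, Ccl8 and Cxcl14. Without control replicate 1 the log2 fold changes were -1.07 for Ccl2, -1.50 for Ccl7, -1.06 for Cxcl1 and -1.59 for Cxcl12. These stayed past the threshold by edgeR. C1qa tags were also present in the libraries that remained. The part of macrophages in the chemokine differences was not tested.

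Ccl5, the lymphocyte and monocyte attractant RANTES, was the chemokine gene of the set with the most tags and the only tested one that did not pass the threshold. It lies on the minus strand of the same chromosome (chr11:83525778-83530518), 1490.2 kb from the start of Ccl2 and apart from its cluster. It had 487, 370 and 513 tags in the trSrebf1 libraries, against 355, 679 and 468 in the control libraries. The groups overlapped, because control replicate 2, at 174 CPM, stood above all other libraries and control replicate 1, at 92.6 CPM, below them. Means were 105 ± 11.6 CPM in trSrebf1 and 126 ± 43.0 CPM in control fibroblasts (SD, n = 3 each). The log2 fold change was -0.26 (95% interval -0.72 to 0.20, edgeR adjusted p = 0.398). Without control replicate 2 it was 0.05, with an adjusted p of 0.867. Of the 542 distinct words of 30 bases in the last 300 bases of the annotated Ccl5 transcripts, 7 also occur in transcripts of other genes, so a small share of its tags could be ambiguous.

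T and NK cells are a known source of Ccl5, and CD45, which they carry, was among the lineage proteins depleted and gated out. Of 15 listed T, NK and B cell markers 12 had no row in the count tables, among them Cd3e, Cd2, Trac, Nkg7 and Gzmb. The other 3 (Klrb1c, Cd3d and Ms4a1) summed to between 0 and 1.59 CPM in the trSrebf1 libraries and between 0 and 2.31 CPM in the control libraries, while Ccl5 stood at 92.6 CPM or more in all 6. Control replicate 2, the library with the most Ccl5 tags, held 7 tags of Klrb1c and 1 each of Cd3d and Ms4a1. In trSrebf1 replicate 2, the lowest of its group in Ccl5, Klrb1c had 6 tags. In trSrebf1 replicate 3, the highest of its group in Ccl5, Cd3d had 6 tags and Klrb1c 1. The part of lymphocytes in the Ccl5 values was not tested.

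The make-up of the chemokine tags differed between the groups. Ccl5 accounted for 71.2%, 67.9% and 73.6% of the tags of the 10 genes in the trSrebf1 libraries, against 40.8%, 63.8% and 54.4% in the control libraries. Every trSrebf1 share was above every control share. Without Ccl5 the other 9 genes summed to 42.2, 44.2 and 41.8 CPM in the trSrebf1 libraries and 135, 99.0 and 92.0 CPM in the control libraries. The sums of the trSrebf1 libraries were close to one another, and the control mean was 2.54-fold the trSrebf1 mean. Ccl5 was left out with its values known, and it was the tested gene that did not pass the threshold. With Ccl5 kept, the control mean was 1.59-fold the trSrebf1 mean. The 10 genes then summed to 147 ± 10.4 CPM in trSrebf1 and 234 ± 36.2 CPM in control fibroblasts (SD, n = 3 each). Ccl8 took a larger share in trSrebf1 fibroblasts. Its share of the tags was 2.41% ± 1.48 in trSrebf1 and 0.210% ± 0.09 in control fibroblasts (SD, n = 3 each).

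**Figure D3:**
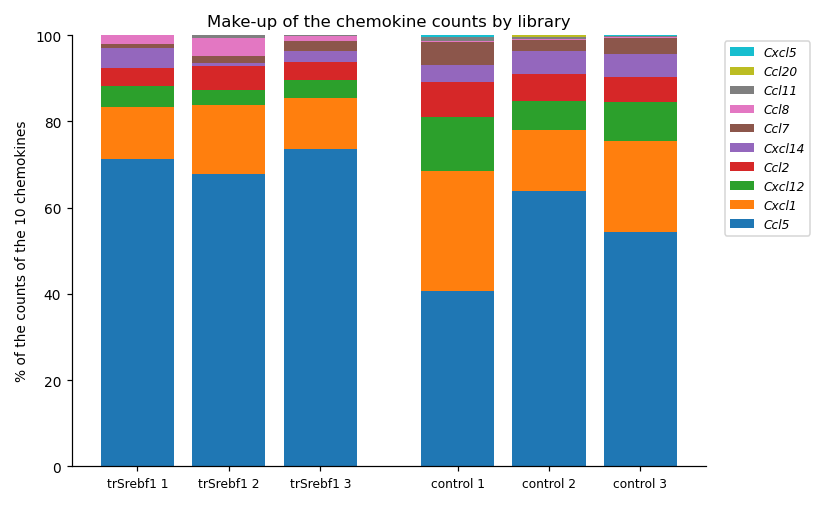
Share of each chemokine gene in the summed counts of all 10, by library, with the 3 trSrebf1 libraries at the left and the 3 control libraries at the right. Ccl5 fills 67.9% to 73.6% of the trSrebf1 bars and 40.8% to 63.8% of the control bars.

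Ccl20 (chr1:83116766-83119167), the ligand of Ccr6 that attracts Th17 cells and immature dendritic cells, had 0 tags in all trSrebf1 libraries and 2, 5 and 1 tags in the control libraries. The pooled control level, 0.667 CPM, was 2.90-fold a limit of 3 counts over the trSrebf1 group. This ratio leaves out the counting error of the control tags and is not a lower bound. With no filter the edgeR adjusted p of Ccl20 was 0.0731, so the difference was not past the threshold. In other tissues Ccl20 is mainly an epithelial gene. The epithelial marker Epcam had 1 tag in the trSrebf1 and 1 in the control libraries, and the 14 epithelial markers, led by Krt19 and Sftpb, summed to 15.2 to 39.9 CPM in trSrebf1 and 23.9 to 28.6 CPM in control fibroblasts. The members did not share a direction. Krt19 fell (edgeR adjusted p = 0.0317), while Foxj1, a ciliated cell factor named after its values were seen, rose (edgeR adjusted p = 4.77e-05). Foxj1 had 34, 23 and 24 tags in the trSrebf1 libraries against 3, 3 and 1 in the control libraries. It passed the filter through the trSrebf1 libraries, where it is high, since 0 control libraries reached 2.41 CPM. Cdh1, also named after its values were seen and not tested, had 14, 2 and 11 tags in the trSrebf1 libraries and 0, 1 and 0 in the control libraries. The part of epithelial cells in the chemokine values was not tested.

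Of the neutrophil attractants, Cxcl1 fell and Cxcl5 was near the detection limit. Cxcl1 (chr5:90891241-90893115), the mouse Cxcr2 ligand KC, had 83, 87 and 83 tags in the trSrebf1 libraries, against 242, 152 and 180 in the control libraries. The trSrebf1 libraries were alike at 17.8, 22.0 and 18.9 CPM, and the control libraries stood apart from them and spread more widely, at 63.1, 39.0 and 42.3 CPM. Means were 19.5 ± 2.19 CPM in trSrebf1 and 48.1 ± 13.1 CPM in control fibroblasts (SD, n = 3 each). The log2 fold change was -1.30 (SE 0.20, edgeR adjusted p = 5.85e-05), and it stayed past the threshold in all 15 alternative settings, with values from -1.43 to -1.06.

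Cxcl5 (chr5:90759360-90761624), another Cxcr2 ligand, starts upstream of Cxcl1, at -131.9 kb from its start. It had 0 tags in all trSrebf1 libraries and 3, 0 and 1 in the control libraries. The pooled control level was 1.45-fold a limit of 3 counts over the trSrebf1 group, with the counting error of the control tags left out. The groups overlapped, and with no filter the edgeR adjusted p of Cxcl5 was 0.258.

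Between and beside this pair lie further neutrophil attractants, of which 2 passed the filter. Cxcl2 had 80, 64 and 69 tags in the trSrebf1 libraries and 90, 123 and 184 in the control libraries, with a 2.01-fold lower mean level in trSrebf1 (SE of the log2 fold change 0.21, edgeR adjusted p = 0.00140). Cxcl3 had 70, 72 and 64 tags in the trSrebf1 libraries and 77, 96 and 137 in the control libraries, a log2 fold change of -0.69 (SE 0.21, edgeR adjusted p = 0.0171). In both genes all trSrebf1 libraries were below all control libraries in CPM. Cxcl3 missed the threshold under DESeq2 (adjusted p = 0.0535). It also missed it when control replicate 3 (0.113), trSrebf1 replicate 1 (0.0663) or trSrebf1 replicate 3 (0.0629) was left out, and its adjusted p spanned 0.00502 to 0.113 across alternatives.

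The stromal CXC chemokines Cxcl12 and Cxcl14 were both lower in trSrebf1 fibroblasts. Cxcl12 (chr6:117168535-117181367), the ligand of Cxcr4 also called SDF-1, had 33, 18 and 28 tags in the trSrebf1 libraries, against 109, 70 and 79 in the control libraries. In CPM the trSrebf1 libraries stood at 7.06, 4.55 and 6.36 and the control libraries at 28.4, 18.0 and 18.5, with the highest trSrebf1 value well under the lowest control value. The level averaged 5.99 ± 1.30 CPM in trSrebf1 and 21.6 ± 5.89 CPM in control fibroblasts (SD, n = 3 each). Its log2 fold change of -1.84 (SE 0.26, edgeR adjusted p = 3.49e-05) had the smallest p among the 6 tested chemokine genes, and ranged from -1.97 to -1.59 over the alternatives.

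Cxcl14 (chr13:56288643-56296551, minus strand), a chemokine of epithelium and stroma that attracts monocytes and dendritic cell precursors, had 32, 4 and 18 tags in the trSrebf1 libraries, against 34, 58 and 46 in the control libraries. The highest trSrebf1 library, at 6.85 CPM, was below the lowest control library, at 8.87 CPM, and trSrebf1 replicate 2 was the lowest of all at 1.01 CPM. Means were 3.98 ± 2.92 CPM in trSrebf1 and 11.5 ± 3.07 CPM in control fibroblasts (SD, n = 3 each), with a log2 fold change of -1.49 (SE 0.43, edgeR adjusted p = 0.0179). It missed the threshold when control replicate 2 (adjusted p = 0.0763) or trSrebf1 replicate 3 (0.0804) was left out. Across alternatives its adjusted p spanned 5.16e-05 to 0.0804, and the log2 fold change was -2.12 without trSrebf1 replicate 1.

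**Figure D4:**
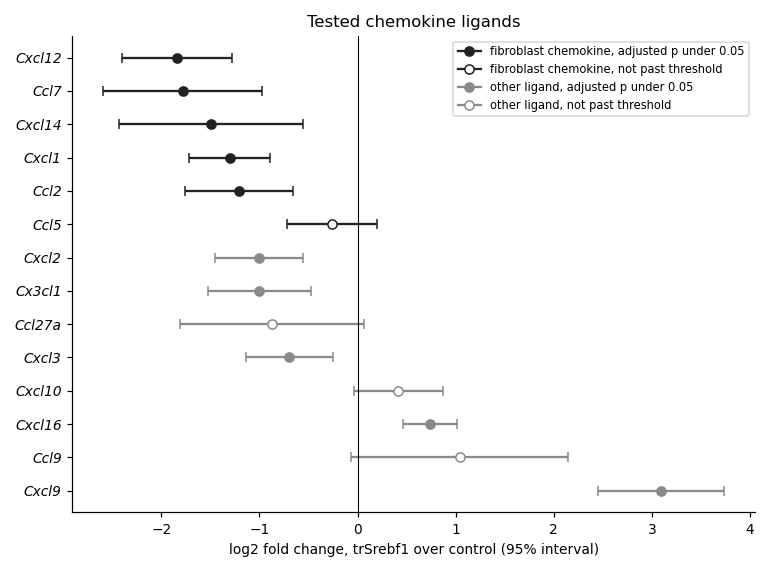
Log2 fold change, trSrebf1 over control, of the 14 chemokine ligands that passed the filter, with 95% intervals of edgeR's quasi-likelihood fit (3 libraries per group). Black points are the fibroblast chemokines and grey points the other ligands, filled where the adjusted p is under 0.05. The black points run from -1.84 for Cxcl12 to -0.26 for Ccl5, while the grey points extend to 3.09 for Cxcl9.

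Other chemokine ligands did not share one direction. Of 29 listed, 16 had a row and 8 passed the filter. Of these 8, 3 fell (Cxcl2, Cxcl3 and Cx3cl1), 2 rose (Cxcl9 and Cxcl16), and Ccl9, Ccl27a and Cxcl10, named after their values were seen, did not pass the threshold. The median log2 fold change of the 8 was -0.14, and 62.5% were called, against 30.2% of all tested genes. Cxcl9, an interferon-gamma target whose protein attracts T cells through Cxcr3, had 644, 653 and 732 tags in the trSrebf1 libraries, against 49, 114 and 56 in the control libraries. It was 8.50-fold higher in trSrebf1 fibroblasts, at 156 ± 16.1 CPM against 18.4 ± 9.40 CPM in control fibroblasts (SD over 3 libraries each), with a log2 fold change of 3.09 (SE 0.28, edgeR adjusted p = 3.18e-05). Cxcl10, another Cxcr3 ligand, had 86, 71 and 92 tags in the trSrebf1 libraries and 49, 71 and 51 in the control libraries, with overlapping groups (log2 fold change 0.42, SE 0.22, edgeR adjusted p = 0.167).

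A pair of ligands made as membrane proteins and shed by proteases moved in opposite directions. Cxcl16, the ligand of Cxcr6, averaged 480 ± 83.0 CPM in trSrebf1 and 288 ± 30.9 CPM in control fibroblasts (SD over 3 libraries each), with a log2 fold change of 0.74 (SE 0.13, edgeR adjusted p = 0.000276). Cx3cl1, or fractalkine, averaged 7.06 ± 0.61 CPM in trSrebf1 and 14.2 ± 2.36 CPM in control fibroblasts (SD over 3 libraries each), with a 95% interval of the log2 fold change of -1.53 to -0.48 (edgeR adjusted p = 0.00492). For both, no trSrebf1 library lay within the control range.

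Receptors for the chemokines were hardly detected. Of 23 listed, 13 had a row and 0 passed the filter, and their sum was 3.86 to 8.56 CPM in trSrebf1 and 6.57 to 9.49 CPM in control fibroblasts. For the receptors of Cxcl12, named after their values were seen, Cxcr4 had 2, 3 and 0 tags in the trSrebf1 libraries and 4, 0 and 5 in the control libraries. The scavenger receptor Ackr3 had 4, 1 and 3 tags in the trSrebf1 libraries and 10, 4 and 7 in the control libraries.

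Of 20 tested receptors that can switch chemokine genes on in fibroblasts 5 fell and 2 rose, with a median log2 fold change of -0.14. The share called was 35.0%, close to the 30.2% of all tested genes. The interleukin-1 receptor Il1r1 had 128, 117 and 112 tags in the trSrebf1 libraries and 254, 265 and 282 in the control libraries (log2 fold change -1.28, SE 0.15, edgeR adjusted p = 2.53e-06). The oncostatin M receptor Osmr fell by 0.67 on the log2 scale. The tumour necrosis factor receptor Tnfrsf1a rose by 0.56 and the interferon-gamma receptor chain Ifngr2 by 0.53 on that scale. Tlr4 fell by 0.81 and Il6st by 0.39, and neither passed in every alternative. Tlr4 missed the threshold when control replicate 2 (edgeR adjusted p = 0.0529), trSrebf1 replicate 2 (0.0608) or trSrebf1 replicate 3 (0.0979) was left out. Il6st missed it under DESeq2 (0.0608) and when control replicate 1 (0.141) or trSrebf1 replicate 1 (0.0698), 2 (0.0578) or 3 (0.0737) was left out.

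NF-kB genes split evenly. Of 16 tested 4 rose, 4 fell and 8 did not pass the threshold (median log2 fold change 0.14). That is 50.0% called, against 30.2% of all tested genes. The subunits Nfkb2, Rel and Relb rose by 1.44 (SE 0.13), 1.63 (SE 0.24) and 0.84 (SE 0.17) on the log2 scale, as did Tnip1, a partner of the brake A20, by 1.54 (SE 0.16). The brakes Nfkbia and Tnfaip3, the gene of A20, fell by 0.78 (SE 0.16) and 1.06 (SE 0.24). Nfkb2 stood at 520 ± 35.2 CPM in trSrebf1 and 192 ± 34.6 CPM in control fibroblasts (SD, n = 3 each), while Rela, named after its values were seen, stood at 22.8 ± 6.63 CPM in trSrebf1 and 22.4 ± 4.03 CPM in control fibroblasts.

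Of 11 tested genes for proteins that control the life of chemokine mRNA 3 fell and 0 rose (median log2 fold change -0.02). The share called was 27.3%, near the 30.2% of all tested genes. The genes that fell were the mRNA-destabilising Zfp36, or tristetraprolin, its relative Zfp36l1, and the ribonuclease Zc3h12a, also called Regnase-1. They fell by 0.81 (SE 0.13), 1.06 (SE 0.11) and 1.30 (SE 0.26) on the log2 scale. Zc3h12a had 34, 41 and 23 tags in the trSrebf1 libraries and 82, 67 and 75 in the control libraries.

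Of 16 tested genes that trim chemokines or hold them on the cell surface 2 rose and 5 fell (median log2 fold change -0.19). Together 43.8% were called, against 30.2% of all tested genes. Mmp9, a gelatinase that can cut several CXC chemokines, rose by 4.80 (SE 0.25) and the heparan sulfate proteoglycan Gpc1 by 1.77 (SE 0.18) on the log2 scale. Mmp9 passed the filter through the trSrebf1 libraries, where it is high, since only 1 control library reached 2.41 CPM. The gelatinase Mmp2, known to trim Cxcl12 and Ccl7, fell by 0.78 (SE 0.11), the aminopeptidase Anpep by 0.79 (SE 0.17), the syndecan Sdc4 by 0.56 (SE 0.12) and the heparan sulfate polymerase Ext1 by 0.66 (SE 0.15). Dpp4, the peptidase that inactivates Cxcl12, did not pass the filter.

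**Figure D5:**
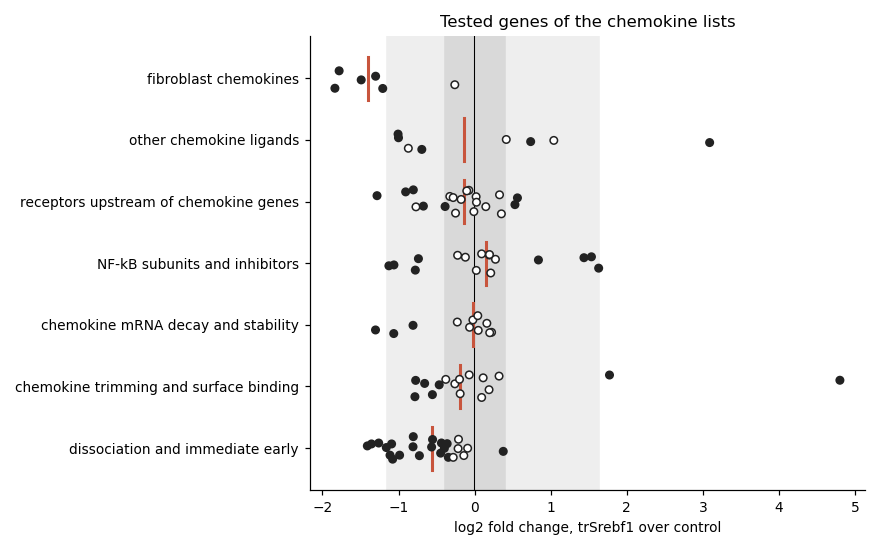
Log2 fold change, trSrebf1 over control, of each tested gene in the fibroblast chemokines and 6 related lists, with filled points at an adjusted p under 0.05 and a red bar at the median of each list. The vertical line is the median of all tested genes, and the dark and light bands hold the middle 50% and 90% of them. The fibroblast chemokines have a median of -1.40, and the dissociation and immediate early genes one of -0.56.

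Chemokine genes such as Cxcl1 and Ccl2 can be induced while tissue is digested, so dissociation and immediate early genes were read beside them. Of 24 tested dissociation and immediate early genes, with Zfp36 also on the list of mRNA decay, 18 fell and 1 rose. That is 79.2% called, against 30.2% of all tested genes. The sum of the 24 was 26052 to 31239 CPM in trSrebf1 and 38048 to 45779 CPM in control fibroblasts, without overlap. Klf4, Fosb, Btg2, Klf2, Dusp1 and Fos had the smallest p-values and fell by 0.73 to 1.41 on the log2 scale. The 5 that did not pass the threshold, named after their values were seen, were Jun and the heat shock genes Hspa1a, Hspa1b, Hsp90aa1 and Hspa8. Their edgeR adjusted p was 0.227, 0.602, 0.742, 0.163 and 0.134. The part of a digestion response in the chemokine differences was not tested.

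Markers of other cell types were also summed, although the depletion and the gate were set against CD45 (neutrophils), CD31 (endothelium) and CD146 (pericytes and endothelium). The sums were 7.92 to 10.4 CPM in trSrebf1 and 7.04 to 9.13 CPM in control fibroblasts for neutrophils (Csf3r and Camp), and 61.1 to 64.6 CPM in trSrebf1 and 46.2 to 59.8 CPM in control fibroblasts for endothelium (Eng and Egfl7). Pericyte and smooth muscle markers (Des and Cspg4) summed to 222 to 257 CPM in trSrebf1 and 141 to 159 CPM in control fibroblasts, although of 8 tested 5 fell and 2 rose. Of these 8, 87.5% were called, against 30.2% of all tested genes. Mesothelial markers (Krt7 and Msln) summed to 21.1 to 49.0 CPM in trSrebf1 and 55.6 to 78.2 CPM in control fibroblasts. The neutrophil markers S100a8, S100a9, Ly6g and Mpo had no row in the count tables. The endothelial markers Pecam1 and Cdh5 had 0 tags in trSrebf1 and 1 tag each in control libraries. Egfl7 went the other way and rose (log2 fold change 3.43, edgeR adjusted p = 1.79e-05). It had 32, 29 and 25 tags in the trSrebf1 libraries against 2, 3 and 2 in the control libraries. Because 0 control libraries reached 2.41 CPM, it passed the filter through the trSrebf1 libraries, where it is high. The part of such cells in the chemokine differences was not tested.

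Among tested genes with a mean of 20 CPM or more, those whose profile over the 6 libraries was most like that of Ccl5 were Cdk5rap2, Ifitm3 and Emc8, with Pearson correlations of log2(CPM + 1) of 0.99, 0.99 and 0.95. None of the 3 passed the threshold between the groups. For Cxcl12, the tested chemokine gene with the smallest p, they were Capzb, Tram1 and Sec24d, at 0.996, 0.993 and 0.993, and all 3 were lower in trSrebf1 fibroblasts by edgeR. These are the highest of 3772 and 3773 correlations over 6 libraries that share the group difference and the scaling, and are given as a description.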

How the data were processed

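Each library came as a deposited table of raw counts by gene symbol, from 3'SAGE-seq, per the labels. The submitters' processing notes name Bowtie2 2.2.5 and mm10. How tags were counted, on which annotation and with what strand rule is not given in the sources used here. PolyA RNA came from 10000 sorted cells per library, per the labels' protocols. The labels do not say whether replicates are separate mice or cultures, so p-values reflect only the spread between libraries, possibly technical. No pair of replicates agreed within counting noise (chi-square per degree of freedom 4.52 to 8.13), and each was kept as its own sample. This spread does not show whether the libraries come from separate mice or cultures.

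From these counts, genes were filtered with filterByExpr (minimum count 10, minimum total count 15), scaled by TMM and tested with edgeR 4.0.16 in R 4.3.3 (robust glmQLFit and glmQLFTest, group as the only term), two-sided, with Benjamini-Hochberg adjustment over all 10194 tested genes. Log2 fold changes are trSrebf1 over control with a prior count of 0.125, and the SE is the size of the change divided by the square root of F. The limit for a gene with 0 tags in a group is 3 counts over the group. Like all counting limits here it covers counting error only, since amplified tags are not independent molecules. The ratio to this limit leaves out the counting error of the other group. The fit was tested on simulated data. Alternatives were other scalings, other filters, DESeq2 1.42.0, limma-voom (limma 3.58.1), a replicate block and leaving out each library. Gene positions are from GENCODE M21 (GRCm38), and promoters from RefSeq GRCm38.p6.

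The 10 genes and the lists were chosen with earlier results of these data known. Named genes were the 10, Srebf1, up to 6 called members of each related list with the smallest p, the 2 most abundant markers of each other cell type, and the 3 genes most like Ccl5 and Cxcl12 in profile. The result of 1 marker list is not reported here. Genes named after their values were seen are said to be so, and list members with no or few tags were named to account for the lists.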

Additional observations from a re-analysis of the deposited data

How the results depend on the processing

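In all 15 alternatives Ccl2, Ccl7, Cxcl1 and Cxcl12 kept their direction and stayed past the threshold. In the main fit Ccl7 passed the filter through the control libraries, where it is high, so its value there is selected by the difference. The count of the chemokine genes called stayed between 4 and 6, with 6 to 10 tested. Of those called 4 or 5 were lower, and in some settings 1, Ccl8, was higher. With no filter 5 of 10 were lower and 1 was higher, where 3445 of 19865 genes were called in either direction. Ccl8, untested above at a log2 ratio of mean CPM of 2.79, passed under DESeq2 (2.79) and when low counts were kept (no filter, 2.71), and it ranged from 2.42 to 3.11 in the settings without 1 library where it reached the filter. It reached it through the trSrebf1 libraries, where it is high, so those values are selected by the difference and are no support for it. Cxcl14 lost its call with the replicate block (-1.56, adjusted p = 0.0656), and without 1 library it ranged from -2.12 to -1.06. Ccl5 stayed under the threshold in all 15, ranging from -0.43 to 0.05 without 1 library, and was above 0 only without control replicate 2 (0.0454). The labels share replicate numbers between groups, but same-numbered libraries did not deviate together (correlations of 0.005, -0.112 and -0.054), so the numbers were not taken as pairs. With the block 2820 genes were called, against 3083 without it. The causes of these changes were not tested. Depth limits Ccl11, Ccl20 and Cxcl5, which had 19, 8 and 4 tags in all 6 libraries.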
